A study of Mus musculus with 30 samples.

Results

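The genes described here encode isozymes of 4 steps of glycolysis and the enzyme of its red cell side branch: the hexokinases Hk1 and Hk2, the phosphofructokinases Pfkl, Pfkm and Pfkp, the pyruvate kinases Pkm and Pklr, bisphosphoglycerate mutase (Bpgm), and the lactate dehydrogenases Ldha and Ldhb. They were chosen by symbol and were 10 of the 54532 genes in the count table. RNA was sequenced from MEL cells, mouse erythroleukemia cells in which DMSO induces hemoglobin. WT cells and Abcb10-null cells, which lack the ATP-binding cassette transporter Abcb10 of the inner mitochondrial membrane, were sampled untreated (day 0) and at days 2 and 5 of a treatment with 1.5% DMSO, with 5 libraries in each of the 6 groups. The Abcb10-null cells were 1 CRISPR/Cas9 clone targeted in the first exon of Abcb10, so a difference between genotypes cannot be told apart from a difference between this clone and its parent line. Both genotypes carry the leukemic background of MEL cells, which divide in culture and do not become circulating red cells.

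Glycolysis turns glucose into pyruvate and then lactate, and it is the only source of ATP in a mature red cell, which has no mitochondria. Hexokinase, phosphofructokinase and pyruvate kinase are the steps at which the pathway is controlled, and each has isozymes that differ between tissues. Red cells rely on hexokinase 1, on the product of Pklr, and on Bpgm, which makes the 2,3-bisphosphoglycerate that lowers the oxygen affinity of hemoglobin, whereas Hk2, Pkm and Ldha are the usual forms of proliferating cells. Phosphofructokinase in red cells is built of muscle (Pfkm) and liver (Pfkl) subunits.

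The red cell forms of pyruvate kinase and hexokinase 1 are made from start sites of their own, which counts per gene do not separate, nor do they separate the splice forms of Pkm. The sequences before the start sites of Pklr, Hk1 and Bpgm are shown because the data bear on these red cell genes most directly. Each is the 250 bases before a RefSeq start on the GRCm38.p6 build, on the strand of the gene, and capitals mark GATAA, the core bound by GATA1, and CACCC, the core bound by Klf1, on either strand (TTATC and GGGTG on the other).
Pklr, first start, chr3:89135892-89136141, plus strand: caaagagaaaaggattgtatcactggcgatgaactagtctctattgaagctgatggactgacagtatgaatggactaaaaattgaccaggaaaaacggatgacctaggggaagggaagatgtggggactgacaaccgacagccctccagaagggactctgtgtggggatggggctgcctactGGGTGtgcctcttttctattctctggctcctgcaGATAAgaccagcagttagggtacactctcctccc
Pklr, second start, chr3:89136373-89136622, plus strand: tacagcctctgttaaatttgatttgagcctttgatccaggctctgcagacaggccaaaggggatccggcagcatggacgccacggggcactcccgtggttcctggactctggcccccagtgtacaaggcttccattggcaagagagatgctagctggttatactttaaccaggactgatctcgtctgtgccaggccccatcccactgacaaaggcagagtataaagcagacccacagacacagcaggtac
Hk1, first start, chr10:62379909-62380158, minus strand: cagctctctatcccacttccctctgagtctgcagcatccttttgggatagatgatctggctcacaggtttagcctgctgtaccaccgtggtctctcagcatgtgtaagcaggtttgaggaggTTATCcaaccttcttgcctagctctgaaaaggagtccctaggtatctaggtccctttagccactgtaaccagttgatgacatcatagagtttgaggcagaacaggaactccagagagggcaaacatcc
Hk1, second start, chr10:62340422-62340671, minus strand: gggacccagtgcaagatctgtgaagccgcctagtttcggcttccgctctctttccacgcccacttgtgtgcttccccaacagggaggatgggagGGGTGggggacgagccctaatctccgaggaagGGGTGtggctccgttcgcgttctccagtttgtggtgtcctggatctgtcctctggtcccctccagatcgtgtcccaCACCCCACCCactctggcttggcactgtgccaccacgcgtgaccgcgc
Bpgm, chr6:34476106-34476355, plus strand: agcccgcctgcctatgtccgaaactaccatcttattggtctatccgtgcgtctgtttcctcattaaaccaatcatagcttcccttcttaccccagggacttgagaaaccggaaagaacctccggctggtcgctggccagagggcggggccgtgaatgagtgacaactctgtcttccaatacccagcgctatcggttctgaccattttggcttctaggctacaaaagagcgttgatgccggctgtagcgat

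Pklr spans chr3:89136142-89146784, Hk1 chr10:62268855-62379908 and Bpgm chr6:34476207-34505613 in GRCm38. The 2 starts of Pklr lay 481 bases apart, and the upstream one is the start known from red cells. Its window held 1 GATAA and 1 CACCC, and the downstream, liver window held neither. The 2 starts of Hk1 lay 39487 bases apart. The window of the upstream start held 1 GATAA and no CACCC, and that of the downstream start held 4 CACCC and no GATAA. The Bpgm window held neither motif. Among all 32851 mouse windows of this length, 22.6% held GATAA and 52% held CACCC, so a match is common and is given as a description only. All 10 genes had at least 1 window, 17 in all, of which 6 held GATAA and 9 held CACCC. The E-box CACGTG, the core bound by Myc, was in 2 of the 17 windows and in 6.02% of all windows, and ACGTG, the core bound by Hif1a and contained in CACGTG, was in 5 of the 17 and in 16.6% of all.

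Library totals ranged from 9906783 to 20157768 counts. Abcb10 transcripts, which check the labels, were lower in each Abcb10-null library than in each WT library of the same day, at 74.3 ± 4.82 against 119 ± 5.65 CPM (mean ± SD, n = 5) at day 0 and 212 ± 30.2 against 1223 ± 45.6 CPM at day 5. CPM are counts scaled to a common library size. The summed level of 10 erythroid markers, which include Alas2, Slc4a1 and Tfrc, ranged from 2662 to 2883 CPM in WT at day 0 and from 10994 to 22305 CPM at day 5, and in Abcb10-null cells from 2728 to 3065 CPM and from 5246 to 6750 CPM. WT day 5 replicate 5 was the library with 10994 CPM, and the other 4 of its group lay at 19315.5 CPM or above. WT day 2 replicates 1 and 2 stood apart from the other 3 of their group, with marker sums of 5343 and 5385 CPM against 3935 to 4508 CPM and a chi-square per degree of freedom of 6.78 between them against 76.8 to 88.1 to the others. Abcb10-null day 2 replicates 2 and 5 also stood apart, with marker sums of 2639.6 and 2675 CPM against 3092 to 3545 CPM. Values without either pair, a choice made after seeing the libraries, stand beside the day 2 results. By the same chi-square, WT day 5 replicates 1, 3 and 4 lay 6.48 to 11.6 apart. Replicate 2 lay at 41.2 to 140 and replicate 5 at 69.4 to 140 from the other libraries of that group. Each was left out in turn, but no fit left out both. Summed markers of other blood cells ranged from 157.6 to 609.2 CPM over the 30 libraries. The platelet genes Pf4 and Itga2b made up much of that sum and went opposite ways in WT, Pf4 from 234 ± 30.2 CPM at day 0 to 61.0 ± 21.4 at day 5 and Itga2b from 136 ± 14.8 to 313.5 ± 52.3. Elane and Mpo were near 0. Of the 16 markers of other blood cells, 8 passed the filter between genotypes at day 0. Csf1r, Lyz2, Itga2b and Cpa3 were higher in Abcb10-null cells, against 19.7% of all genes higher. Of these, Csf1r, Lyz2 and Cpa3 had few counts, with means of 1.92, 1.06 and 1.42 CPM in Abcb10-null cells. At day 2, 5 passed, and Vwf and Gp9 were lower, against 16.9% of all genes lower. At day 5, 7 passed. Lyz2 and Pf4 were higher and Gp9 lower, against 19.8% of all genes higher and 17.8% lower. The part of these markers in the isozyme values was not tested. In bulk RNA, fewer cells of a type and less RNA per cell cannot be told apart.

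Per kb of exon, Pkm and Ldha were the most abundant of the 10 transcripts in each group, and Pfkl was next. In WT cells at day 0, Pkm stood at 467 ± 84.5 CPM per kb and Ldha at 378 ± 86.1, a difference smaller than the sum of their SDs. Pfkl stood at 70.6 ± 7.17, Hk2 at 32.3 ± 2.18, Pfkm at 26.8 ± 2.35, Pklr at 23.4 ± 3.19, Hk1 at 19.5 ± 2.21, Pfkp at 17.4 ± 1.23 and Bpgm at 5.27 ± 0.455 CPM per kb. Of the neighbours in that order, Pfkm and Pklr, Pklr and Hk1, and Hk1 and Pfkp also differed by less than the sum of their SDs. By day 5 in WT cells the lower part of the order had closed up, with Hk1 at 15.6 ± 3.41, Pfkp at 15.1 ± 2.20, Pklr at 12.2 ± 2.59, Bpgm at 12.2 ± 2.05 and Hk2 at 10.3 ± 1.85 CPM per kb, each within the summed SDs of the next. In Abcb10-null cells at day 5, Hk2 stood at 13.7 ± 5.52, Bpgm at 7.32 ± 0.622, Hk1 at 7.04 ± 1.66 and Pklr at 3.81 ± 1.43 CPM per kb, so that Pklr was the lowest of the 9 genes above the floor.

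Ldhb, the heart form of lactate dehydrogenase, was essentially not detected. Its count was 0 in 25 of the 30 libraries and over 3 in 2, with 4 counts in Abcb10-null day 2 replicate 2 and 9 in Abcb10-null day 5 replicate 4. A count of 0 allows up to 3 counts, which is 0.149 to 0.311 CPM depending on the library, so Ldhb was not tested and Ldha made up nearly all lactate dehydrogenase transcripts. Such floors cover counting error only. The remaining 9 genes passed the filter on low counts in each comparison.

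**Figure D1:**
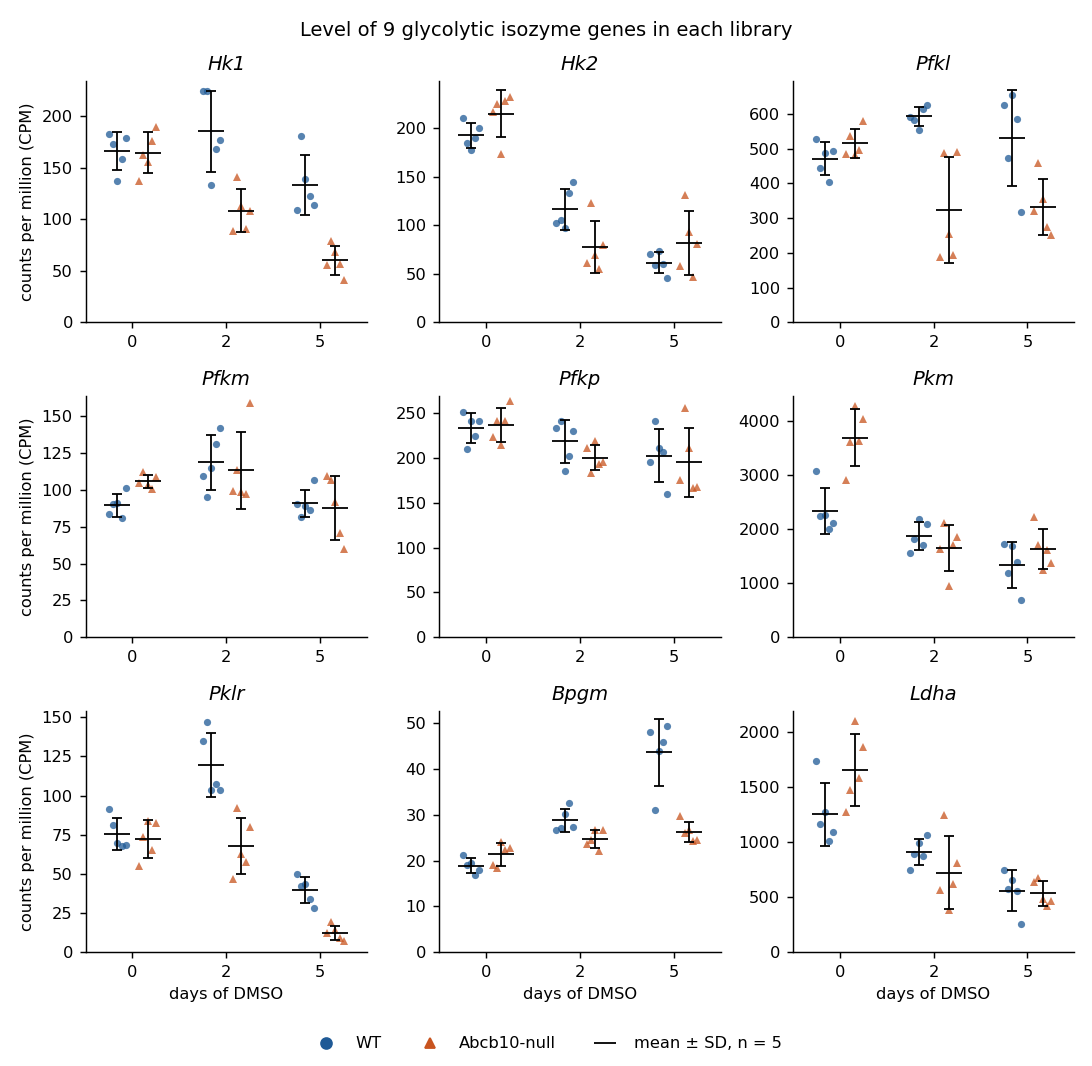
Level of each of the 9 detected isozyme genes (y axis, CPM, linear from 0) by days of DMSO (x axis) in WT (circles) and Abcb10-null libraries (triangles), with mean ± SD of 5 libraries in black. Hk2, Pkm and Ldha were lower at day 5 than at day 0 in both genotypes, and in Abcb10-null cells they were not called after day 2. Bpgm rose most in WT, and at day 5 each Abcb10-null library lay below each WT library for Hk1, Pklr and Bpgm.

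The first question was how these isozymes change as WT cells differentiate. Over 5 days the forms of proliferating cells fell and Bpgm rose, while Pklr rose to day 2 and then fell below where it began. Of the 9 genes tested, 5 changed between day 0 and day 5 (edgeR's quasi-likelihood test, Benjamini-Hochberg adjusted p under 0.05), against 71.2% of all 12723 genes tested. Of these, 1 rose and 4 fell, and 36.5% and 34.7% of all genes did so. The 2 days did not overlap in CPM for 5 genes, against 51.1% of the 14702 genes with enough counts in the series. The p-values measure the spread between these libraries, which the labels call biological replicates.

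Bpgm was read at 21.2, 19.1, 19.5, 16.9 and 17.9 CPM in the 5 WT libraries at day 0, at 26.8, 27.2, 30.1, 32.7 and 27.4 at day 2, and at 48.0, 31.0, 44.1, 45.9 and 49.4 at day 5. Each day 2 library lay above each day 0 library, and at day 5 only replicate 2, at 31.0 CPM, overlapped with day 2. Bpgm rose 2.31-fold from day 0 to day 5 (log2 fold change 1.21 ± 0.13 SE, edgeR adjusted p = 2.49e-06), with about equal steps of 0.61 ± 0.10 to day 2 and 0.60 ± 0.15 after it. The counts behind these values were 233 to 768 per library.

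Pklr was read at 91.2, 81.0, 69.5, 67.9 and 68.2 CPM at day 0, at 135.0, 147, 103, 108 and 103 CPM at day 2, and 49.7, 42.0, 43.6, 34.2 and 28.3 CPM on day 5 in WT cells. The 3 days did not overlap. Pklr rose 1.58-fold to day 2 (log2 0.66 ± 0.12, edgeR adjusted p = 0.000391) and fell 3.00-fold from day 2 to day 5 (log2 -1.58 ± 0.16, adjusted p = 3.37e-05), which left it 1.91-fold below day 0 (adjusted p = 8.54e-05). Of the exon bases of Pklr, 21.97% also lie in exons of Hcn3, a channel gene on the opposite strand, and the strand setting of the counting is not given in the sources used here.

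Hk2, the hexokinase of growing cells, fell at each step in WT, from 193 ± 12.99 CPM (177.9 to 211) at day 0 to 116 ± 21.01 (96.8 to 144) at day 2 and 61.6 ± 11.02 (45.5 to 73.5) at day 5. The 3 days did not overlap, and the whole fall was 3.13-fold (log2 -1.65 ± 0.12, edgeR adjusted p = 7.71e-08). Hk1 in the same libraries was 166 ± 18.8, 185 ± 39.4 and 133 ± 29.1 CPM. Its log2 change from day 0 to day 5 was -0.32 ± 0.14 with an edgeR adjusted p of 0.0545, and from day 2 to day 5 it was -0.48 ± 0.16 with an adjusted p of 0.0407. Both values sat near the threshold: the first passed without WT day 0 replicate 3 (adjusted p = 0.031) or WT day 5 replicate 2 (adjusted p = 0.00127), and the second was lost in 8 of 10 fits without 1 library, all but those without WT day 2 replicate 3 and WT day 5 replicate 2.

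Ldha, which regenerates NAD by making lactate, fell 2.25-fold in WT over 5 days (log2 -1.17 ± 0.24, edgeR adjusted p = 0.000612), from 1730, 1162, 1274, 1004 and 1091 CPM at day 0 to 746, 570.4, 658, 553 and 258 CPM at day 5. Pkm, which makes pyruvate in most tissues, fell 1.75-fold (log2 -0.81 ± 0.21, adjusted p = 0.00424), from 3068, 2236, 2267, 2004 and 2106 CPM to 1721, 1185, 1690, 1389 and 686 CPM. The 2 days did not overlap for either gene. WT day 5 replicate 5, the library with the lowest erythroid marker sum of its group, was also the lowest of its group for Pkm, Ldha, Hk2, Pfkl, Pfkp and Pklr and the highest for Pfkm and Bpgm. The part of that library's state in these values was not tested beyond leaving it out, and without it Ldha, Pkm, Hk2, Pklr and Bpgm were still called from day 0 to day 5. Of the exon bases of Pkm, 15.3% are shared with Gm49759, a gene model on the same strand.

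The 3 phosphofructokinase genes, whose products commit sugar to glycolysis, had small changes in WT. From day 0 to day 2, Pfkl rose 1.26-fold (log2 0.33 ± 0.08, edgeR adjusted p = 0.00419) from 471 ± 47.8 to 593 ± 28.2 CPM, without overlap between days, and Pfkm rose 1.32-fold (log2 0.41 ± 0.11, adjusted p = 0.00636) from 89.5 ± 7.86 to 119 ± 18.5 CPM. Pfkm was back at 90.8 ± 9.36 CPM at day 5, although the call of its fall from day 2 (adjusted p = 0.038) was lost in 7 of 10 fits without 1 library, those without WT day 2 replicates 3, 4 or 5 or WT day 5 replicates 1, 2, 3 or 4. Pfkp, the platelet form, was not called at any WT step, at 234 ± 16.5, 218 ± 23.9 and 203 ± 29.5 CPM. Between day 0 and day 2, 7 of the 9 genes were called, against 62.2% of all genes tested. Of these, 4 were higher and 3 lower, against 31.5% and 30.7% of all genes, and 4 genes did not overlap between these days, against 42.8%. Pkm was among the 3 lower with an adjusted p of 0.0495, which rose above the threshold without WT day 0 replicate 1, 2 or 3 or WT day 2 replicate 1, 2 or 4, and in 6 of 7 other settings, with DESeq2 among them (adjusted p = 0.0532). Without the WT day 2 pair that stood apart, the other 6 calls of this step held, and from day 2 to day 5 those of Hk1 and Bpgm were lost (edgeR adjusted p = 0.186 and 0.0531). Between day 2 and day 5, 6 of 9 were called, against 33.4% of all genes tested, and the 5 that fell were Hk1, Hk2, Pfkm, Pklr and Ldha, against 16.4% of all genes falling and 17% rising. Of the 9, 2 did not overlap, against 21.5%. Ldha fell by 0.70 on the log2 scale in this step, a call that was lost without WT day 2 replicate 2, 3, 4 or 5 or WT day 5 replicate 4.

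The second question was how Abcb10-null cells differ from WT. Before DMSO, Abcb10-null cells had more Pkm, Ldha and Pfkm transcript, and the other 6 genes were not called. At days 2 and 5 they had less Hk1, Pfkl and Pklr, at day 2 also less Hk2 and at day 5 also less Bpgm. At day 0, 3 of 9 genes were called and all 3 were higher, against 36% of all genes called in either direction, 19.7% higher and 16.2% lower. The genotypes overlapped for each of the 9, and 20.6% of all genes did not overlap. At day 2, 4 of 9 were called and all 4 were lower, against 31.8% of all genes, 14.9% higher and 16.9% lower, and 3 genes did not overlap, against 15.1%. All 4 calls at day 2 were lost without the WT day 2 pair that stood apart, with log2 differences of -0.60 for Hk1, -0.72 for Hk2, -0.93 for Pfkl and -0.67 for Pklr (edgeR adjusted p = 0.0605 to 0.0848), and all 4 and Ldha were called without the Abcb10-null pair. At day 5, 4 of 9 were called and all 4 were lower, against 37.6% of all genes, 19.8% higher and 17.8% lower, and 3 genes did not overlap, against 21%. Counted without regard to direction, the numbers called were near the shares of all genes. Split by direction, all called genes were higher at day 0 and all were lower at days 2 and 5. The 3 comparisons use separate libraries, but the genes were chosen with earlier results of these data known. The split by direction is therefore given as a description only. With all 30 libraries in 1 fit, fewer of the genes were called at day 0.

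**Figure D2:**
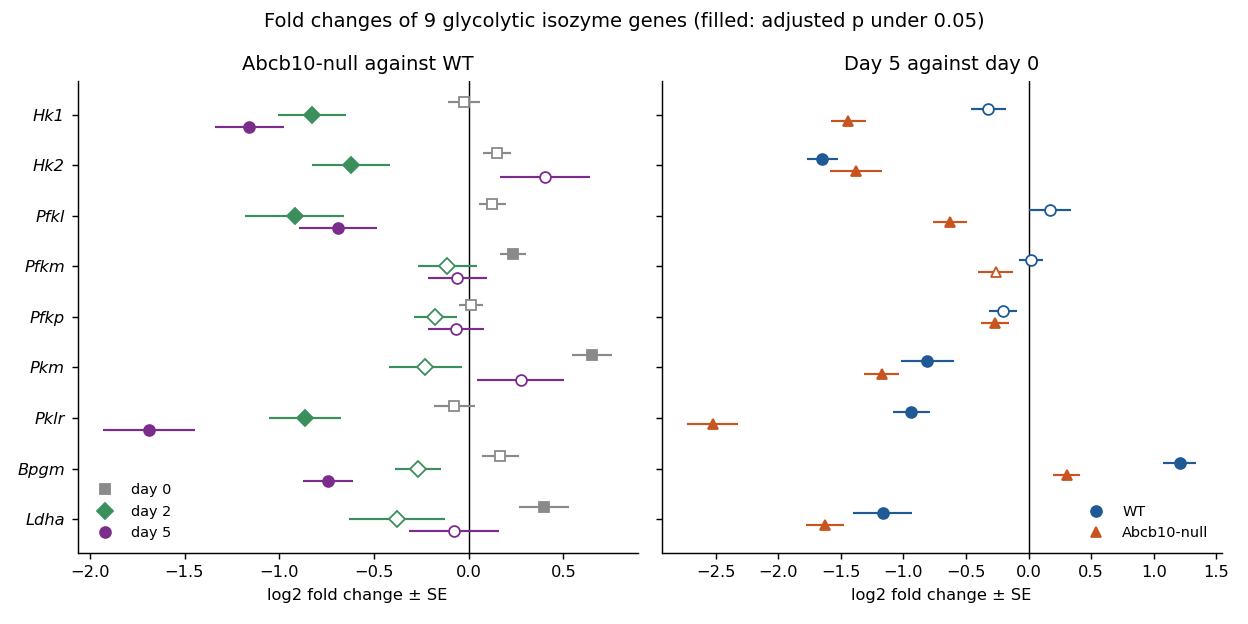
Log2 fold change ± SE (x axis, edgeR) of each of the 9 detected isozyme genes (y axis), for Abcb10-null against WT at each day (left) and for day 5 against day 0 in each genotype (right), with filled symbols where the adjusted p was under 0.05. Pklr had the lowest value in Abcb10-null cells, at -1.69 against WT at day 5 and -2.52 against day 0, and Bpgm is the gene to the right of 0 over time in both genotypes with filled symbols.

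Pklr at day 5 was read at 11.9, 18.99, 14.3, 9.34 and 7.02 CPM in the Abcb10-null libraries against 28.3 to 49.7 CPM in WT. The highest Abcb10-null library lay below the lowest WT library. The level was 3.22-fold lower (log2 -1.69 ± 0.24, edgeR adjusted p = 0.000221), resting on 90 to 305 counts in the Abcb10-null libraries. At day 2 the Abcb10-null libraries held 46.6, 91.8, 62.7, 57.7 and 80.2 CPM, again all below WT (log2 -0.86 ± 0.19, adjusted p = 0.00652). Pklr was not called between day 0 and day 2 in Abcb10-null cells (log2 -0.06 ± 0.18, adjusted p = 0.832). At day 0 Pklr was 72.1 ± 12.1 CPM in Abcb10-null and 75.6 ± 10.3 CPM in WT cells (log2 -0.07 ± 0.11, adjusted p = 0.62). The change over time differed between genotypes by -0.74 ± 0.23 at day 2 and -1.58 ± 0.27 at day 5 (interaction, edgeR adjusted p = 0.0228 and 0.000117).

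Hk1 in Abcb10-null cells was read at 137.4, 162, 156, 176 and 190 CPM (189.6 in replicate 5) at day 0, at 88.7, 141, 112, 90.7 and 108 CPM at day 2, and at 55.4, 78.5, 68.3, 57.0 and 41.1 CPM at day 5. WT libraries held 183, 173, 137.0, 158 and 179 CPM at day 0 and 109, 181, 139, 123 and 114 CPM at day 5. The genotypes overlapped at day 0, and at day 5 each Abcb10-null library lay below each WT library. Hk1 was 2.23-fold lower at day 5 (log2 -1.16 ± 0.18, edgeR adjusted p = 0.00042) and 1.77-fold lower at day 2 (log2 -0.83 ± 0.18, adjusted p = 0.00625). At day 0 its log2 difference was -0.02 ± 0.09 (adjusted p = 0.853). The interaction with time was -1.11 ± 0.21 at day 5 (adjusted p = 0.000354) and -0.75 ± 0.20 at day 2 (adjusted p = 0.0116).

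Hk2 was not called between genotypes at day 5. It stood at 58.2, 131, 93.0, 47.1 and 80.4 CPM in Abcb10-null against 70.3, 58.95, 73.5, 60.02 and 45.5 CPM in WT libraries, an overlapping set with a log2 difference of 0.40 ± 0.24 (edgeR adjusted p = 0.196). At day 2 Hk2 was lower in Abcb10-null cells, at 61.6, 123, 69.8, 55.2 and 80.0 CPM against 96.8 to 144 CPM (log2 -0.62 ± 0.21, adjusted p = 0.0353). That call held in 3 of the 10 fits without 1 library, those without WT day 2 replicate 1, WT day 2 replicate 3 or Abcb10-null day 2 replicate 2. Leaving out WT day 2 replicates 2, 4 or 5 or Abcb10-null day 2 replicates 1, 3, 4 or 5 ended it, with adjusted p up to 0.0931.

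Bpgm, the red cell mutase, rose less in Abcb10-null cells. It was read at 18.95, 18.5, 24.2, 22.4 and 22.8 CPM at day 0 and at 29.7, 26.1, 26.8, 24.2 and 24.5 CPM at day 5, and the 2 days touched without overlapping, at 24.16 and 24.19 CPM. The rise was 1.24-fold (log2 0.31 ± 0.11, edgeR adjusted p = 0.019) and was lost without Abcb10-null day 0 replicate 1 or 2 (adjusted p = 0.0592 and 0.0561). At day 5 each Abcb10-null library lay below each WT library, and Bpgm was 1.67-fold lower (log2 -0.74 ± 0.13, adjusted p = 0.000925). The interaction at day 5 was -0.89 ± 0.17 (adjusted p = 0.000244). At day 2 each Abcb10-null library was again below each WT library, by less (log2 -0.27 ± 0.12, adjusted p = 0.11).

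Pfkl was lower in Abcb10-null cells at day 2, at 189.5, 489.2, 255.8, 193 and 489.5 CPM against 553 to 625 CPM in WT. No library overlapped, but the Abcb10-null libraries fell in a lower set of 3 and an upper pair, replicates 2 and 5. Those 2 libraries also had the lowest erythroid marker sums of their group, and without them the log2 difference was -1.53 (edgeR adjusted p = 1.82e-05). The log2 difference was -0.92 ± 0.26 (edgeR adjusted p = 0.0192) and the call was lost without Abcb10-null day 2 replicate 3 (adjusted p = 0.0505). At day 5 Pfkl was 322, 459, 355, 275 and 251 CPM in Abcb10-null against 627, 474, 655, 586 and 317 CPM in WT libraries. The groups overlapped through WT replicate 5, and the log2 difference was -0.69 ± 0.21 (adjusted p = 0.0184), which was lost without Abcb10-null day 5 replicate 5 (adjusted p = 0.0534).

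Pkm at day 0 was read at 2906, 3609, 4279, 3621 and 4034 CPM in Abcb10-null and at 3068, 2236, 2267, 2004 and 2106 CPM in WT libraries. Only WT replicate 1 reached into the Abcb10-null range, and Pkm was 1.57-fold higher (log2 0.65 ± 0.10, edgeR adjusted p = 9.24e-05). At days 2 and 5 the genotypes overlapped, with log2 differences of -0.23 ± 0.19 and 0.28 ± 0.23 (adjusted p = 0.379 and 0.362). Pkm fell by 1.13 on the log2 scale by day 2 in Abcb10-null cells (SE 0.19, adjusted p = 0.000337), and the interaction at day 2 was -0.83 ± 0.24 (adjusted p = 0.0158).

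Ldha at day 0 was 1268, 1469, 2098, 1582 and 1863 CPM in Abcb10-null libraries against 1004 to 1730 CPM in WT. The groups overlapped, and the difference of 0.40 ± 0.13 on the log2 scale (edgeR adjusted p = 0.0243) was lost without WT day 0 replicate 2, 3, 4 or 5 or Abcb10-null day 0 replicate 3 or 5, with DESeq2 (adjusted p = 0.123) and with all 30 libraries in 1 fit (adjusted p = 0.304). At day 5 Ldha was 533 ± 114 CPM in Abcb10-null and 557 ± 184 CPM in WT cells (log2 -0.08 ± 0.24, adjusted p = 0.818). At day 2 its log2 difference of -0.38 ± 0.25 was not called (adjusted p = 0.269), but was called without Abcb10-null day 2 replicate 2 (-0.67, adjusted p = 0.0137). Pfkm was higher by 0.23 ± 0.07 on the log2 scale at day 0 (106 ± 4.62 against 89.5 ± 7.86 CPM, adjusted p = 0.012) and was not called later, and Pfkp was not called between genotypes at any day.

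Within Abcb10-null cells, 8 of the 9 genes changed from day 0 to day 5, all but Pfkm, against 67.2% of all genes tested. Of these, 7 fell and Bpgm rose, against 33.3% and 33.9% of all genes, and 7 did not overlap between these days, against 49%. Pklr fell 5.75-fold (log2 -2.52 ± 0.21, edgeR adjusted p = 2.19e-08), Ldha 3.09-fold, Hk1 2.72-fold, Hk2 2.597-fold, Pkm 2.25-fold and Pfkl 1.54-fold. Pfkp fell by 0.27 on the log2 scale with an adjusted p of 0.0459, which did not hold without Abcb10-null day 0 replicate 1, 2, 4 or 5 or Abcb10-null day 5 replicate 1, 4 or 5. By day 2, 4 of the 9 were called, all lower, against 43.1% of all genes, 23.1% higher and 20.1% lower. Hk2, Pkm and Ldha did not overlap between these days, against 26.7% of all genes. From day 2 to day 5, 2 were called, Hk1 and Pklr, both lower and without overlap, against 31% of all genes called, 14.4% higher and 16.6% lower, and 19.6% without overlap. The difference between genotypes in the change from day 0 was called for 5 of 9 genes at day 2 against 22.8% of all genes, 12% above 0 and 10.8% below, and for 4 of 9 at day 5 (Hk1, Pfkl, Pklr and Bpgm) against 31.5%, 16.8% above 0 and 14.7% below. All of these interactions were negative. Without the WT day 2 pair that stood apart, those of Hk1 and Pklr at day 2 were not called (edgeR adjusted p = 0.0583 and 0.0978), and without the Abcb10-null pair 8 of 9 were called at day 2.

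The third question was the balance of isozymes at each step, taken as the share of counts per kb within a library, which does not depend on library size. Of 54 comparisons of shares between groups, 20 had an adjusted p under 0.05 (two-sided exact permutation test over 5 and 5 libraries, for which the smallest p is 0.00794, adjusted over the 54). For the 12 share interactions, genotype labels were permuted within each day. That test is exact only if the genotypes are alike on each day, so its p does not measure the difference in change alone. Exons of all transcripts set the length of a gene, which is 8.53 kb for Hk1 and 13.4 kb for Pfkp, and the level of a share depends on this choice. In WT cells at day 0, Hk1 made up 37.6% of hexokinase transcript per kb, 46.2% of the counts, and 52.5% per kb of the longest coding transcript. The order of Hk1 and Hk2 at day 0 therefore turns with the length used. That of Pfkm and Pfkp turned as well, at 23.4 and 15.2% per kb, 11.3 and 29.4% of the counts, and 14.6 and 26.4% by the longest transcript. The size of a difference moved little for Hk1 and by more than 1.5 times for some shares of Pfkm, Pfkp and Pklr, which are given on each length beside them. A test of 3 against 5 libraries, as without either day 2 pair, left no share called between groups (the lowest exact permutation adjusted p were 0.0804 and 0.0714, as for Pfkl), so only values are given for it.

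**Figure D3:**
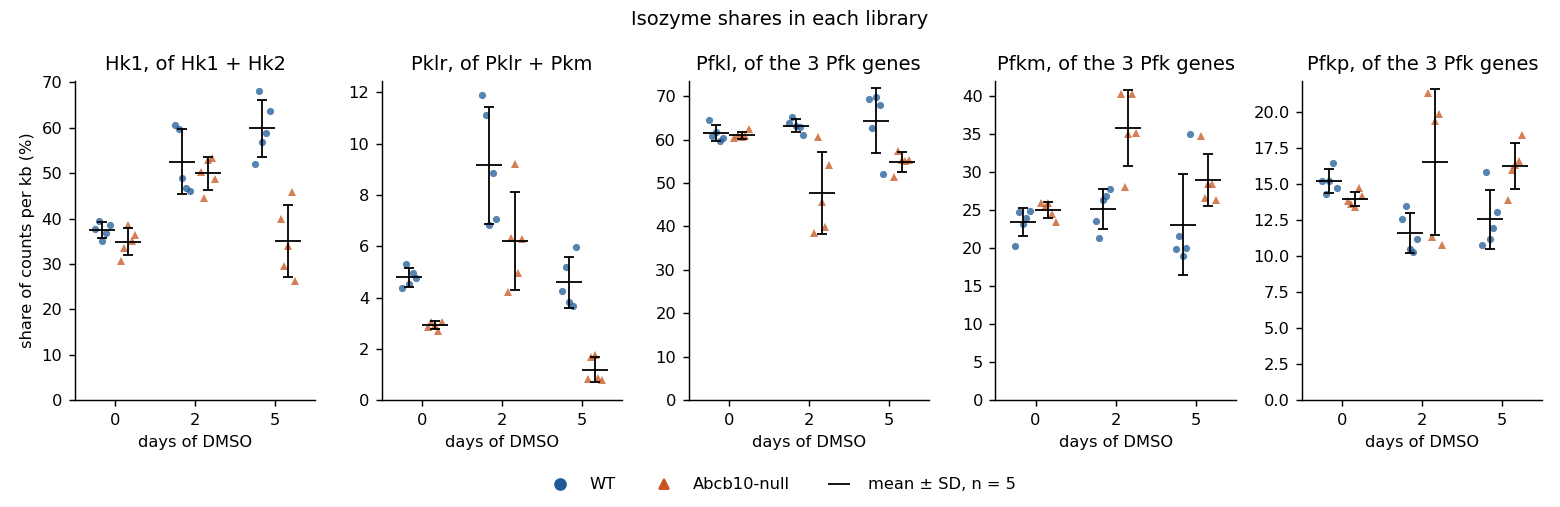
Share of each isozyme in the counts per kb of its family (y axis, percent, each panel with its own range from 0) by days of DMSO (x axis) in WT (circles) and Abcb10-null libraries (triangles), with mean ± SD of 5 libraries in black. The Hk1 share rose in WT to 59.9% at day 5 and stood at 35.1% in Abcb10-null cells, and the Pklr share was lower in each Abcb10-null library at days 0 and 5.

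The share of Hk1 rose in WT cells. In Abcb10-null cells it rose by day 2 and was back at its day 0 value at day 5. The level of Hk1 was not called higher at any step. From day 0 to day 5 in WT, Hk1 changed by log2 -0.32 (not called) and Hk2 by -1.65. In Abcb10-null cells by day 2, Hk1 changed by -0.57 and Hk2 by -1.43, both called. From day 2 to day 5 in these cells, Hk1 changed by -0.85 and Hk2 was not called. The Hk1 share in WT was 37.6% ± 1.74 (SD, n = 5), 52.5% ± 7.14 and 59.9% ± 6.24 at the 3 days in turn. At day 2 the WT libraries fell in the same 2 sets as above, replicates 1 and 2 at 60.6 and 59.8% and the other 3 at 46.2 to 49.0%, and without that pair the rise from day 0 to day 2 was 9.80 points. The Abcb10-null share was 34.9% ± 2.97, 49.98% ± 3.60 and 35.1% ± 7.88. At day 5 the WT libraries held 52.0, 68.2, 56.9, 58.9 and 63.6% and the Abcb10-null libraries 39.98, 29.5, 33.9, 45.8 and 26.4%. The groups did not overlap, and the difference of -24.8 points had an exact permutation p of 0.00794 (adjusted p = 0.0252). The day 0 to day 5 rise in WT of 22.4 points had the same p values. The difference between genotypes in that change was -22.1 points, with an exact permutation p of 0.0145 and an adjusted p of 0.0661 over 12 interactions, which did not pass. By shares of counts and by the longest transcript the adjusted p was 0.0403 and 0.0444. From day 2 to day 5 the Abcb10-null share fell by 14.9 points (exact permutation adjusted p = 0.0429), a call that held only without Abcb10-null day 2 replicate 2 or Abcb10-null day 5 replicate 4.

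Pklr made up a small share of pyruvate kinase transcript in each group, and a smaller one in Abcb10-null cells. In WT the share went from 4.79% ± 0.363 at day 0 through 9.15% ± 2.29 to 4.59% ± 0.979, and the Abcb10-null share was 2.92% ± 0.148, 6.20% ± 1.91 and 1.19% ± 0.49. The genotypes did not overlap at day 0 or at day 5 (differences of -1.87 and -3.40 points, exact permutation p = 0.00794, adjusted p = 0.0252 for each). Of counts these differences were -1.24 and -2.25 points and by the longest transcript -1.05 and -1.90, all called. At day 0 the level of Pklr itself was not called and that of Pkm was higher. At day 2 the libraries overlapped, and the difference of -2.95 points was not called (exact permutation p = 0.0556, adjusted p = 0.12). Both genotypes rose from day 0 to day 2 and fell from day 2 to day 5 without overlap between days, and Pkm remained at least 88.1% of pyruvate kinase transcript per kb in each library.

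The balance of phosphofructokinases differed between genotypes for Pfkp at day 0, for Pfkl and Pfkm at day 2 and for Pfkp at day 5. At day 0 the Pfkp share was 13.95% ± 0.499 in Abcb10-null against 15.2% ± 0.824 in WT cells (exact permutation adjusted p = 0.0429), the opposite direction to day 5, and the call held in 2 of 10 fits without 1 library. The Pfkl share in WT was 61.4% ± 1.86, 63.2% ± 1.52 and 64.4% ± 7.45 over the 3 days and was not called between them, while the WT share of Pfkp fell from 15.2% ± 0.824 to 11.6% ± 1.36 by day 2 (exact permutation adjusted p = 0.0252). In Abcb10-null cells the Pfkl share was 61.0% ± 0.805 at day 0 and 47.8% ± 9.47 at day 2, where the libraries held 38.5, 60.6, 45.6, 39.9 and 54.1%. Each lay below the lowest WT library, at 61.1%, and the difference of -15.5 points had an exact permutation p of 0.00794 (adjusted p = 0.0252). The share of the muscle form Pfkm was higher, at 35.7% ± 5.00 against 25.2% ± 2.66 (adjusted p = 0.0252, exact permutation). This was a difference of 10.6 points per kb, 5.34 points of counts and 6.70 by the longest transcript. The 3 shares are parts of 1 sum, so a lower Pfkl raises the others. The level of Pfkm was not called at day 2 (log2 -0.11 ± 0.16, edgeR adjusted p = 0.615), and that of Pfkl was lower. The change in share from day 0 to day 2 was not shown to differ between genotypes for Pfkl, Pfkm or Pfkp (exact permutation adjusted p = 0.0661, 0.0901 and 0.0663). Without the WT day 2 pair the genotypes differed by -14.6 points for Pfkl and 8.74 for Pfkm, and without the Abcb10-null pair by -21.9 and 13.3. At day 5 the Abcb10-null shares were 54.8% ± 2.19 for Pfkl and 28.9% ± 3.42 for Pfkm. Both had changed from day 0 without overlap, by -6.17 and 3.87 points (exact permutation adjusted p = 0.0252 for each), but the Pfkm change was not called of counts or by the longest transcript (adjusted p = 0.0893 and 0.0745). The Pfkl difference of -9.51 points was not called (exact permutation adjusted p = 0.0893), since WT replicate 5 stood at 52.0% against 62.6 to 69.8% in the other 4, and without it the value was -12.6 points (adjusted p = 0.0408). The Pfkp share at day 5 was 16.3% ± 1.61 in Abcb10-null and 12.6% ± 2.04 in WT cells (exact permutation adjusted p = 0.0429), called in 2 of the 10 fits without 1 library, those without WT day 5 replicate 2 or Abcb10-null day 5 replicate 1. The level of Pfkp was not called at day 5 (log2 -0.07 ± 0.15, edgeR adjusted p = 0.755), and that of Pfkl was lower. The Pfkp share difference of 3.69 points per kb was 7.03 of counts and 6.25 by the longest transcript. The genotypes differed by 4.94 points in the change of the Pfkp share from day 0 (exact permutation adjusted p = 0.0238). That call was lost without Abcb10-null day 5 replicate 2, 3, 4 or 5. The value was 8.89 points of counts and 8.04 by the longest transcript. The Pfkp share was called between genotypes at day 0 and at day 5, so this p does not measure the change alone.

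The other genes of the pathway were taken from lists. Of 18 other glycolytic enzymes, 10 to 11 passed the filter on low counts, and most of those called between genotypes were called at day 0. Between genotypes at day 0, 6 of 11 were higher in Abcb10-null cells (Aldoa, Aldoc, Tpi1, Pgk1, Eno1 and Eno2) and 0 lower, against 19.7% and 16.2% of all genes, with a median log2 difference of 0.24 against 0.00 over all genes. At day 2, 2 of 10 were lower (Gpi1 and Eno2), against 16.9% of all genes. At day 5 only Aldoc, a brain aldolase, was called of 10, against 19.8% of all genes higher and 17.8% lower. It was higher, at 5.69 ± 2.13 against 2.48 ± 0.993 CPM (log2 1.19 ± 0.36, edgeR adjusted p = 0.0213). In WT from day 0 to day 5, 5 of 10 fell (Tpi1, Gapdh, Pgam1, Eno1 and Eno3) and Aldoc rose, against 34.7% and 36.5% of all genes, with a median of -0.33 against 0.02 over all genes. In Abcb10-null cells over the same days, 6 of 11 fell and Aldoc rose, against 33.3% and 33.9% of all genes, with a median of -0.47. By day 2 in these cells, 8 of 11 were lower and 0 higher, against 20.1% and 23.1% of all genes, with a median of -0.82. Eno1, the main enolase, stood at 499 ± 45.2, 360.2 ± 61.4 and 216 ± 54.8 CPM in WT over the 3 days.

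Transporters of glucose and lactate were called about as often as all genes over time. In WT from day 0 to day 5, 3 of 9 rose and 3 fell, against 36.5% and 34.7% of all genes, with a median log2 change of 0.13. Slc16a10, an aromatic amino acid transporter of the monocarboxylate family, rose from 72.6 ± 5.44 to 174 ± 10.4 CPM (log2 1.26 ± 0.08, edgeR adjusted p = 2.77e-08). Slc2a4, the insulin-responsive glucose transporter, rose from 0.245 ± 0.21 to 2.03 ± 1.00 CPM (log2 2.99 ± 0.56, adjusted p = 0.000306), on few counts. Between genotypes at day 5, Abcb10-null cells had 3 of 9 lower and 0 higher, against 17.8% and 19.8% of all genes, with a median of -0.41. They were Slc2a6, Slc16a10 and Bsg, and Slc2a6, a glucose transporter of lysosomes, stood at 8.62 ± 4.44 against 16.6 ± 2.71 CPM (log2 -0.94 ± 0.29, adjusted p = 0.0217). At day 0 Slc2a6 was called the other way, at 37.1 ± 2.84 against 26.98 ± 2.02 CPM.

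Regulators of glycolytic flux were called about as often as all genes in WT from day 0 to day 5 and between genotypes at day 5. Between genotypes at day 0, 6 of 12 were higher in Abcb10-null cells (Pfkfb2, Pfkfb4, Pdk1, Pdk3, Pdp2 and Fbp2) and 1 was lower (Pck2). Of all genes, 19.7% were higher and 16.2% lower at day 0. In WT, 4 of 12 rose and 5 fell from day 0 to day 5, against 36.5% and 34.7% of all genes. At day 5, Abcb10-null cells had 2 higher and 3 lower, against 19.8% and 17.8%, with a median of -0.07. Fbp2, the muscle fructose bisphosphatase, which runs the phosphofructokinase step backwards, fell from 24.7 ± 2.33 to 1.52 ± 0.529 CPM in WT (log2 -4.00 ± 0.22, edgeR adjusted p = 4.43e-09). In the Abcb10-null libraries at day 5 it had 0 to 3 counts against 10 to 32 in WT, at least 6.99-fold lower with each Abcb10-null library set at 3 counts. At day 0 it was called higher in Abcb10-null cells, at 37.3 ± 4.10 against 24.7 CPM. Tigar, which lowers fructose 2,6-bisphosphate, fell from 6.87 ± 0.894 to 1.33 ± 0.506 CPM in WT (log2 -2.37 ± 0.26, adjusted p = 2.23e-06). Pdk2, a kinase that shuts off pyruvate dehydrogenase, rose from 1.14 ± 0.67 to 4.62 ± 2.62 CPM in WT (log2 2.02 ± 0.45, adjusted p = 0.00121) and was 2.10 ± 0.884 CPM in Abcb10-null cells at day 5 (log2 -1.14 ± 0.41, adjusted p = 0.0449). Pck2, the mitochondrial PEP carboxykinase, was higher in Abcb10-null cells at day 5, at 44.2 ± 6.86 against 20.5 ± 5.69 CPM (log2 1.10 ± 0.19, adjusted p = 0.000658), and called lower at day 0, at 21.5 ± 3.55 against 33.6 ± 3.89 CPM. The comparisons of WT over time and of genotypes at day 5 share the WT day 5 libraries.

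Pentose phosphate enzymes, which draw glucose 6-phosphate away from glycolysis to make NADPH, fell together in both genotypes. From day 0 to day 5, 8 of 9 fell and Rpe rose in WT, with a median log2 change of -1.03, against 34.7% of all genes falling. In Abcb10-null cells also 8 of 9 fell and Rpe rose, with a median of -0.98, against 33.3% falling. Pgd, the second NADPH-making enzyme, went from 205 ± 16.7 to 53.8 ± 7.75 CPM in WT (log2 -1.93 ± 0.11, edgeR adjusted p = 7.88e-09). At day 5, Abcb10-null cells had 5 of 9 higher and 2 lower, against 19.8% and 17.8% of all genes, with a median of 0.34, and H6pd, the form in the endoplasmic reticulum, stood at 20.6 ± 3.26 against 12.8 ± 2.501 CPM (log2 0.68 ± 0.17, adjusted p = 0.00674).

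The factors whose cores were searched for in the windows above were measured in the same libraries. Klf1, which drives many late erythroid genes, was lower in Abcb10-null cells at day 5, at 154 ± 15.97 against 431 ± 59.2 CPM (log2 -1.49 ± 0.12, edgeR adjusted p = 2.64e-06), and at day 2 (log2 -0.82 ± 0.16, adjusted p = 0.00489). Gata1, the main erythroid GATA factor, was lower at day 5, at 210.5 ± 37.4 against 335 ± 17.8 CPM (log2 -0.68 ± 0.12, adjusted p = 0.000947). Myc and Hif1a, both known to raise glycolytic genes, were higher at day 5, Myc at 28.8 ± 2.16 against 15.9 ± 2.07 CPM (adjusted p = 0.000307) and Hif1a at 184 ± 25.5 against 114 ± 8.14 CPM (adjusted p = 0.000571). Hif1a was also higher at day 2 (log2 0.789 ± 0.215, edgeR adjusted p = 0.0157). Myc and Gata1 were not called at day 2 (edgeR adjusted p = 0.0695 and 0.281). At day 0 Myc was lower, at 28.2 ± 3.68 against 36.9 ± 6.14 CPM (log2 -0.39 ± 0.11, edgeR adjusted p = 0.00908), and the other 3 factors were not called. No binding was measured, and the part of these factors in the isozyme values was not tested.

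By the root mean square difference between centred log2 CPM over the 6 group means, among 9710 genes with a mean of at least 5 CPM, the patterns most like Hk1 were those of Abhd17a (0.0941), Xrcc3 (0.142) and Cavin1 (0.144), where Hk1 itself varied by 0.554 about its mean. Those most like Pklr were Lig1 (0.288), Uhrf1 (0.334) and Crip1 (0.386), against 1.06 for Pklr itself. Those most like Bpgm were Zfp866 (0.0522), Tab3 (0.0621) and Prpf39 (0.0624), against 0.377. Lig1 is the DNA ligase of replication and Uhrf1 a factor of DNA methylation upkeep in dividing cells. The Pklr pattern was matched less closely than those of the other 2 genes. From day 0 to day 2 in WT, the centred values went from 0.809 to 0.796 for Lig1 and from 0.905 to 0.611 for Uhrf1. Crip1 went from 0.616 to 0.652, while Pklr rose by 0.66 on the log2 scale.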

How the data were processed

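MEL cells of both genotypes gave 30 RNA-seq libraries, sequenced after depletion of ribosomal and globin RNA. The authors aligned the stranded reads to GRCm38 with STAR 2.6.1b and assigned them to genes of Ensembl release 94 with featureCounts 1.6.3. The deposited values are raw counts per gene, as the authors made them, not normalized. The strand setting of the counting is not given in the sources used here.

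Groups and replicate numbers come from the labels. The 10 genes and all lists were chosen with earlier results of these data known. Genes were tested with edgeR 4.0.16 (R 4.3.3; TMM, filterByExpr, glmQLFit, glmQLFTest) on the libraries compared, over all genes, and called at a Benjamini-Hochberg adjusted p under 0.05. Isozyme shares used counts per kb of the union of GENCODE exons, with two-sided exact permutation tests (scipy 1.17.1). Named are the 10 genes, Abcb10, the list genes with the 3 largest rises and the 3 largest falls among those called in WT from day 0 to day 5 and between genotypes at day 5, the 4 factors, and the 3 patterns most like Hk1, Pklr and Bpgm. Called list members and blood cell markers are also named, and Eno1, Pf4 and Itga2b are given with values, chosen after these were seen. A symbol with several identifiers used the one with most counts, and shares per longest coding transcript and fits without 2 day 2 libraries of a genotype were added; all were chosen after seeing the data. Replicate libraries of a group differed by more than counting error (chi-square per degree of freedom of at least 6.48). Promoter windows are from RefSeq, GRCm38.p6. A gene of the erythroid marker list is not reported here and was left out of its sum.

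The steps were tested on simulated data: for Abcb10-null against WT at day 5, with 12676 genes, edgeR recovered 81% of genes changed by 1 and 99% of genes changed by 2 on the log2 scale. For the interaction at day 5 it recovered 70% and 96%. The changed genes were drawn from those with higher counts, and 13 and 10 unchanged genes were called in the 2 comparisons. Only 200 genes were changed in each, and every other gene had 1 mean for all groups. In the data 37.6% and 31.5% of all genes were called in these comparisons, so the rates may not carry over. DESeq2 1.42.0, other size factors, other filters, all 30 libraries in 1 fit, a smaller gene set, the replicate number as a block and each library left out were tried as alternatives.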

Additional observations from a re-analysis of the deposited data

Results flagged for a closer look

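In 84 groups of 5 libraries tested for a library far from its group mates, 5 were marked, where chance gives about 1 in 20. Hk2 stood at 173 CPM in Abcb10-null day 0 replicate 3 against 217 to 232 CPM in the other 4, and without it Hk2 was called higher in Abcb10-null cells at day 0 (log2 0.22, edgeR adjusted p = 0.0084). Pfkm stood at 159 CPM in Abcb10-null day 2 replicate 5 against 97.5 to 113 CPM. Pkm stood at 3068 CPM in WT day 0 replicate 1 against 2004 to 2267 CPM. The Pfkm share was 34.9% in WT day 5 replicate 5 against 19.01 to 21.5%, and 34.8% in Abcb10-null day 5 replicate 1 against 26.3 to 28.4%.

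The change from day 0 was called different between genotypes for 9 gene levels and 1 share. On the log2 scale, Abcb10-null minus WT, the differences at day 2 were -0.75 for Hk1 (edgeR adjusted p = 0.0116), -0.73 for Hk2 (0.0287), -0.99 for Pfkl (0.0167), -0.83 for Pkm (0.0158) and -0.74 for Pklr (0.0228). For Hk2 the call was lost without WT day 0 replicate 3 (adjusted p = 0.0538) or Abcb10-null day 2 replicate 1 (0.0511). Those of Hk1 and Pklr were lost without both WT day 2 replicates 1 and 2 (0.0583 and 0.0978). At day 5 the differences were -1.11 for Hk1 (edgeR adjusted p = 0.000354), -0.79 for Pfkl (0.0112), -1.58 for Pklr (0.000117) and -0.89 for Bpgm (0.000244). The Pfkp share differed by 4.94 points at day 5 (exact permutation adjusted p = 0.0238, genotype labels permuted within each day, with the limit given above).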

How the results depend on the processing

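Of 52 called gene differences, 42 were called under each of 7 other settings and 41 under every fit without 1 library, and none of the 52 reversed under either. The numbers of genes called moved past 1.5 times with all 30 libraries in 1 fit, to 1 between genotypes at day 0, 4 in WT from day 0 to day 2 and 3 for the interaction at day 2. Without WT day 2 replicates 1 and 2, 0 genes were called by edgeR between genotypes at day 2 (5 of 9 at an unadjusted p under 0.05) and 3 for the interaction at day 2. Without Abcb10-null day 2 replicates 2 and 5, 8 were called for that interaction. Without either pair, 0 shares were called in the comparisons between groups with that day (exact permutation test, 3 against 5), and without the Abcb10-null pair 3 share interactions were called at day 2. Uncalled values that changed sign without the WT pair were Hk1 in WT to day 2 (log2 -0.0234), the Hk1 share between genotypes at day 2 (2.63 points) and the Pklr share interaction at day 2 (0.481), and without the Abcb10-null pair Pfkm to day 2 (-0.0839) and Pkm (0.189) and Ldha (0.0318) from day 2 to day 5 in Abcb10-null cells. Without 1 library in turn, 2 to 5 genes were called between genotypes at day 2 and 3 to 5 in WT from day 2 to day 5. Uncalled values that changed sign, given as log2, were Pfkp between genotypes at day 0 (-0.0035 with DESeq2 size factors), Pfkm in WT from day 0 to day 5 (-0.0227) and Pfkl in Abcb10-null cells from day 2 to day 5 (-0.0026) with all genes of at least 1 count. The replicate numbers did not pair the libraries (8 of 75 same-number pairs correlated over 0.1, median -0.0145). With the replicate block, Pkm in Abcb10-null cells from day 2 to day 5 was 0.00052, and 0 of the isozyme shares were called in any of the 9 comparisons, since 5 pairs cannot go below a p of 0.0625. By shares of counts and by the longest coding transcript, 2 share interactions were called at day 2 and 3 at day 5 under each. Uncalled shares that changed sign were Pfkl between genotypes at day 0 (0.818 points of counts, 0.52 by longest transcript), Pfkl in WT from day 2 to day 5 (-0.239 of counts), Pfkm in WT from day 0 to day 5 (0.216 and 0.17) and Hk1 in Abcb10-null cells from day 0 to day 5 (-0.0378 by longest transcript).

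Without 1 library, the shares called ranged from 1 to 2 between genotypes at day 0, 1 to 3 in Abcb10-null cells from day 2 to day 5, 1 to 2 in WT from day 0 to day 5, and 0 to 2 for each interaction. Values that crossed 0 were uncalled in the full fit. Between genotypes, as log2, they were Hk1 (-0.104 to 0.0319), Pfkp (-0.0381 to 0.0467) and Pklr (-0.136 to 0.00615) at day 0, and Ldha (-0.269 to 0.0445) and Pfkm (-0.158 to 0.0526) at day 5. In WT they were Pfkp to day 2 (-0.149 to 0.000212), Pfkl from day 2 to day 5 (-0.241 to 0.00404) and Pfkm from day 0 to day 5 (-0.0481 to 0.0566). In Abcb10-null cells they were Pfkm (-0.0194 to 0.191) and Pklr (-0.188 to 0.0585) to day 2, and from day 2 to day 5 Hk2 (-0.179 to 0.301), Pfkl (-0.13 to 0.236), Pfkp (-0.166 to 0.00893) and Pkm (-0.168 to 0.0892). The Pfkp interaction at day 5 ran from -0.182 to 0.0171. In points of share they were Hk1 in Abcb10-null cells from day 0 to day 5 (-2.44 to 2.43), the Hk1 interaction at day 2 (-1.44 to 2.17), Pfkl between genotypes at day 0 (-0.865 to 0.349) and in WT from day 2 to day 5 (-0.247 to 4.19), Pfkm in WT from day 0 to day 5 (-3.25 to 0.731), Pfkp in Abcb10-null cells from day 2 to day 5 (-1.72 to 0.913) and Pklr in WT from day 0 to day 5 (-0.551 to 0.0289). The causes were not tested. Depth limits only Ldhb among the 10 genes.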
